A study of Mus musculus with 18 samples.

Results

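The joint exposure of macrophages to titanium dioxide (TiO2) particles and estradiol was compared with vehicle on 3 arrays of each kind, 6 of the 18 arrays in the series. The cells were J774, an established mouse macrophage line, kept in medium free of phenol red. Cells of the jointly exposed group received 10 µg of TiO2 per well and 2 µg/mL 17-β estradiol for 24 h, and vehicle cells received neither. The other groups set beside them were TiO2 alone (10 µg per well), estradiol alone (2 µg/mL), and talc with estradiol (10 µg per well and 2 µg/mL), each with 3 arrays. Talc alone (10 µg per well, 3 arrays) was the remaining group and entered the model that was fitted to all 18 arrays. J774 is 1 tumour-derived line. Nothing in the labels says that arrays sharing a group are separate cultures, and the p-values then measure only the spread among those arrays, possibly a technical one. The arrays are numbered group by group, from vehicle (1 to 3) to TiO2 plus estradiol (16 to 18), so any effect of that order and the effect of the exposure cannot be told apart.

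Macrophages take up mineral particles through scavenger and other phagocytic receptors, and particles that damage the lysosome can start the inflammasome and the release of interleukin-1. Estradiol acts through the nuclear receptors Esr1 and Esr2, which bind DNA or act through coregulators, and through the membrane receptor Gper1. TiO2 is often used as a particle of low toxicity beside minerals such as talc, and the joint arm asks whether such a particle and the hormone together move the transcriptome of a macrophage.

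The arrays carried the signal of macrophages. All 10 macrophage markers lay above the median gene level and 9 of them above the 90th percentile, whereas at most 2 markers of any other cell type checked (fibroblast, epithelial, lymphocyte, granulocyte and mast cell, dendritic cell) lay above the median. The mean log2 intensity of the macrophage markers was 10.458 to 10.504 on the vehicle arrays and 10.341 to 10.372 on those of the joint exposure, so the groups did not overlap, and none of the 10 passed the test. The mean of the lymphocyte markers, of low signal, was separated the other way, at 3.596 to 3.655 with vehicle and 3.73 to 3.829 with both exposures. After quantile normalization both differences were narrower, with 10.418 to 10.495 against 10.375 to 10.409 for macrophage and 3.641 to 3.654 against 3.685 to 3.767 for lymphocyte markers. All arrays came from an established macrophage line, so markers of other types are read here as signal and not as shares of cells. The lymphocyte markers lay below the median level, the highest at percentile 34.3. Both shifts had the sign of the median change among genes of similar level. That median was 0.07 and 0.069 in the lower classes of level described next, and -0.087 in the highest. Whether the shifts come from the scale of the arrays or from RNA per cell was not tested.

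The scale of the jointly exposed arrays was narrower than that of the vehicle arrays. Their upper quartile of intensity was 233, 232 and 222 units against 242, 243 and 247 on the vehicle arrays, and the array at 222 (replicate 3) was the lowest of all 18. When the genes were divided into 4 equal classes by mean level, the median log2 change against vehicle was 0.07 in the lowest class, 0.069 in the next, -0.063 in the third and -0.087 in the highest. In the highest class 28.4% of genes were above vehicle, and in the lowest 62.2%. After quantile normalization, which gives every array the same distribution, these shares were 49.6% and 51%, and the class medians lay between -0.002 and 0.005. The single exposures had no such gradient of the same size, with class medians between -0.035 and 0.014 for TiO2 and between -0.021 and 0.021 for estradiol. The part of this difference in scale in the single results was not tested, and list medians after quantile normalization are given beside those of the deposited values, with the counts where these differ by over 1.5 times.

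**Figure D1:**
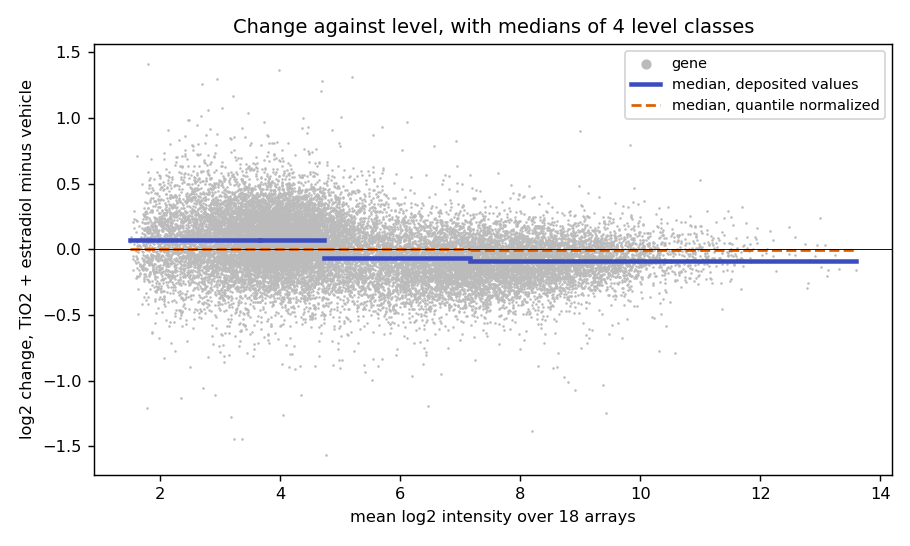
Log2 change of each gene, TiO2 plus estradiol minus vehicle (vertical axis), against its mean log2 intensity over 18 arrays (horizontal axis); each grey point is a gene. Blue lines give the median of each of 4 classes of level in the deposited values, from 0.07 in the lowest to -0.087 in the highest, and orange dashed lines the same after quantile normalization, which lie near 0.

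No gene passed in TiO2 plus estradiol against vehicle. Of 23102 genes tested with limma, 0 (0%) reached a Benjamini-Hochberg adjusted p under 0.05, the threshold used throughout, and the smallest adjusted p was 0.099. At an unadjusted p under 0.05 there were 2908 genes, 12.6% of all, of which 1175 (5.09%) were higher and 1733 (7.5%) lower. Without replicate 3 of the joint exposure the unadjusted genes were 1040 higher and 1151 lower, and after quantile normalization 1111 higher and 1157 lower. The split turned to 1867 higher and 742 lower when the probe set of highest signal stood for each gene, and was 695 higher and 2661 lower after subtraction of array medians, so the majority direction depends on the processing. The arrays of both groups did not overlap for 4025 genes, 17.4% of all, which were higher for 6.69% and lower for 10.7%. Large changes were few: 30 genes had an estimate beyond 1 log2 unit in either direction, and for 96.8% of genes the 95% interval of the change lay within 2-fold. TiO2 alone against vehicle gave 1886 genes at an unadjusted p under 0.05 (8.16%) and estradiol alone 1124 (4.87%), and in both 0 passed. These comparisons share the vehicle arrays.

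Among the 8 lower genes of smallest p, clone-named and predicted genes left out, the mannose receptor Mrc1, a scavenger receptor of alternatively activated macrophages, came first. Its log2 intensities were 6.57, 6.38 and 6.64 on the vehicle arrays and 5.61, 5.85 and 5.47 on the jointly exposed arrays. Every jointly exposed array lay below every vehicle array, at 54.1% of the vehicle level on average. The log2 change was -0.89 ± 0.14 (SE, n = 3 and 3, 95% interval -1.19 to -0.58, limma adjusted p = 0.099), and 22 of its 24 probe sets were lower. It was -0.82 after quantile normalization and -0.80 without replicate 3. Mrc1 reached a limma adjusted p of 0.027 with an intensity trend and robust variance, and 0.027 on the log2(intensity + 16) scale. It reached 0.03 when tested among genes above the median level alone. No gene, Mrc1 and those below included, passed with the probe set of highest signal, quantile normalization, subtracted array medians or array weights. None passed either with only the groups compared, without both talc groups, or without any single array.

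Tgfbi, which encodes a secreted matrix protein under the control of TGF-beta, had vehicle values of 8.70, 8.83 and 8.69 and joint values of 8.17, 8.29 and 8.25. The groups did not overlap, and all 18 of its probe sets were lower. The log2 change was -0.51 ± 0.10 (limma adjusted p = 0.13, or 0.027 on the log2(intensity + 16) scale), and -0.42 after quantile normalization. Rad50, a subunit of the complex that senses DNA double-strand breaks, had vehicle values of 8.28, 8.13 and 8.36 and joint values of 7.75, 7.73 and 7.35. Its change of -0.65 ± 0.12 was carried by 21 of 22 probe sets. It had a limma adjusted p of 0.13, and of 0.027 with an intensity trend and robust variance.

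The other lower genes of smallest p were Gsta2, a glutathione transferase (log2 change -1.11), Armcx5 (-0.80), Efna1, the ligand ephrin A1 (-0.71), Cog7, a subunit of the Golgi tethering complex (-0.55), and Ift140, a component of intraflagellar transport (-0.47). Each had an adjusted p of 0.13 and no overlap between groups. Gsta2 was a gene of very low signal, with vehicle values of 3.76, 3.52 and 3.09 against 2.39, 2.34 and 2.34, and 1 of its 2 probe sets was higher. Cog7 changed sign when the probe set of highest signal stood for the gene (0.16). Cog7 and Efna1, each with an adjusted p of 0.049, and Ift140, with 0.027, reached the threshold on the log2(intensity + 16) scale.

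Gemin4, a component of the SMN complex that assembles spliceosomal ribonucleoproteins, led the higher genes. Its log2 intensities were 8.69, 8.71 and 8.48 on the vehicle arrays and 9.35, 9.41 and 9.83 on the jointly exposed ones. The groups did not overlap, and the joint level was 187% of vehicle. The change was 0.91 ± 0.15 (limma adjusted p = 0.099), rested on 1 probe set, and was 0.75 without replicate 3. Like Mrc1, Gemin4 reached the threshold among genes above the median level (adjusted p = 0.03), on the log2(intensity + 16) scale (0.027) and with an intensity trend and robust variance (0.011).

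Cdkn2b, which encodes the cyclin-dependent kinase inhibitor p15, had vehicle values of 5.67, 5.29 and 5.59 and joint values of 6.08, 6.06 and 6.16. All 3 joint values were above all 3 vehicle values, and the 4 probe sets of the gene were higher. The log2 change was 0.58 ± 0.12 (limma adjusted p = 0.13, or 0.049 on the log2(intensity + 16) scale), and 0.68 after quantile normalization. The remaining 6 higher genes included Olfr1265 (1.06) and Olfr813 (0.71), both odorant receptors, and Mbd3l1, an Mbd3-like protein (0.73). The others were Mrgpre, a Mas-related G protein-coupled receptor (0.72), Fcamr, an Fc receptor for IgA and IgM (0.60), and Tmem178, a transmembrane protein (0.55). All 6 had a mean level below that of the median gene. Olfr813, Mbd3l1 and Olfr1265 had very low signal, at percentiles 0.10, 7.5 and 9.0 of mean level. Both odorant receptors rested on 1 probe set each. In the 2 classes of lower level most genes were above vehicle before quantile normalization, and after it these changes were between 0.50 for Tmem178 and 0.98 for Olfr1265.

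Of the 40 genes of smallest p, 21 were higher and 19 lower, and 19 had a mean level below the median. The gene of smallest p was A430018G15Rik, a clone-named gene that the rule for named genes leaves out and that is given here after its values were seen. It had vehicle values of 3.97, 3.81 and 3.41 and joint values of 2.31, 2.48 and 2.56, a change of -1.28 ± 0.20 (limma adjusted p = 0.099) on 1 probe set. The joint values lay below those of all arrays of the other groups set beside them, talc alone not counted. A limma adjusted p of 0.027 was reached with an intensity trend and robust variance.

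**Figure D2:**
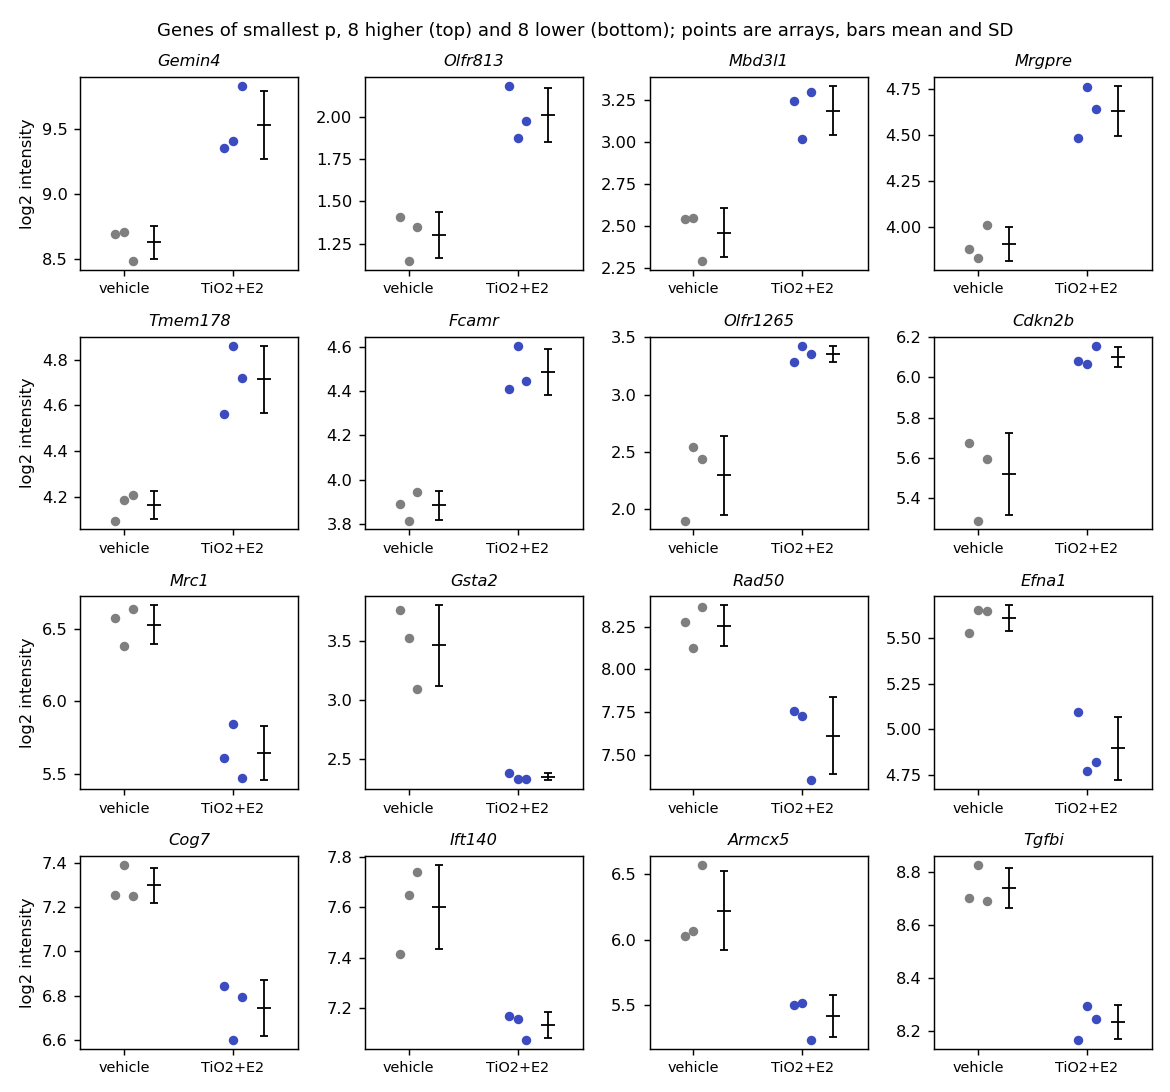
Log2 intensity (vertical axes, each with its own range) of the 16 genes of smallest p, 8 higher in the upper rows and 8 lower in the lower rows, on the 3 vehicle arrays (grey) and the 3 arrays of TiO2 plus estradiol (TiO2+E2, blue). Points are arrays and bars the mean with SD. The groups do not overlap in any of the 16, which were chosen by their p, and none passed the adjusted threshold.

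Gene groups were described by counts and medians, set against a median change of -0.012 over all genes and 0.002 after quantile normalization. None of the measured members of the 38 lists passed. Of the list medians, 29 were below 0 with the deposited values and 16 after quantile normalization. The counts at an unadjusted p under 0.05 given for each list stand beside 5.09% higher and 7.5% lower over all genes. Of all 23102 genes 12077 were below vehicle. Genes of high level lay below vehicle more often, as only 28.4% of the highest class were above it. In that class 810 of 5776 genes were lower and 95 higher at an unadjusted p under 0.05, or 292 and 302 after quantile normalization. The median member of the mitosis, integrated stress response and LXR lists fell in that class, and that of the interferon list in the class below.

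Genes of the integrated stress response, by which cells lower translation and raise amino acid supply through Atf4, had a median log2 change of -0.17 (-0.11 after quantile normalization). Of 32 measured members 27 were below vehicle, and at an unadjusted p under 0.05 there were 10 lower and 1 higher, or 6 and 0 after quantile normalization. The members of smallest p were amino acid transporters. Slc7a1, the cationic amino acid transporter, had a change of -0.47 ± 0.12, with 8.90, 9.12 and 9.03 against 8.35, 8.64 and 8.65. Slc7a5, the large neutral amino acid transporter, had -0.40 ± 0.11, with 9.44, 9.48 and 9.68 against 9.12, 9.12 and 9.15. In both genes every jointly exposed array was below every vehicle array, and the limma adjusted p values were 0.19 and 0.21. Ddit3, the stress factor CHOP, had a change of -0.37 ± 0.12 (adjusted p = 0.23), and -0.27 after quantile normalization.

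The cystine transporter Slc7a11, which supplies cysteine for glutathione, had vehicle values of 5.36, 5.49 and 5.69 and joint values of 4.91, 4.92 and 4.96. The groups did not overlap, with a change of -0.58 ± 0.15 (limma adjusted p = 0.19) that was -0.61 after quantile normalization and -0.60 without replicate 3. The change was -0.73 with TiO2 alone and -0.59 with estradiol alone, from the same vehicle arrays. The 250 bases before its start are shown because the gene has a pair of matches to the amino acid response element, the site bound by Atf4 and its partners; the window is chr3:50443614-50443863 on the minus strand of GRCm38.p6 (RefSeq), given from 5′ to 3′ along the gene with the matches in capitals.
Slc7a11: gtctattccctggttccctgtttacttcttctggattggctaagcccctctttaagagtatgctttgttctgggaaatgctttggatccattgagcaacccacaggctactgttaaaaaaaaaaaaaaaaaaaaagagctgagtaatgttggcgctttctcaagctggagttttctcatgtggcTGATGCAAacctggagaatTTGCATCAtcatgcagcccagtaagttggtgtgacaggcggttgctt
The element was searched as TGATGNAA on both strands, in windows of 250 bases before to 50 after each start. It was found in 8 of the 26 integrated stress response genes with a window (30.8%) and in 4.51% of all genes with a window. The median log2 change was -0.17 in the 8 genes with a match and -0.19 in the 18 without one, with 5 of 8 and 18 of 18 below vehicle, and the difference between these sets was not tested.

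Type I interferon response genes had a median of -0.19, and of -0.15 after quantile normalization. Of 40 measured members 31 were below vehicle, 7 of them at an unadjusted p under 0.05, and 2 were higher at that level. After quantile normalization 6 were lower and 1 higher. Ifi44, an interferon-induced gene, had 6.98, 7.23 and 7.49 on the vehicle arrays and 6.12, 6.46 and 5.55 on the joint arrays, with no overlap and replicate 3 lowest. Its change was -1.19 ± 0.25 (limma adjusted p = 0.17), and -0.94 without replicate 3. Ifi203, a member of the PYHIN family of DNA-binding proteins, had a change of -0.90 ± 0.21 on 1 probe set, and -0.66 without replicate 3. Stat2, which carries the interferon signal to the nucleus, and Eif2ak2, the kinase PKR that senses double-stranded RNA, had changes of -0.36 and -0.38, and their joint arrays lay below all vehicle arrays too. Of the probe sets of Stat2 13 of 20 were lower, and of those of Eif2ak2 17 of 19.

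Among Toll-like receptors and their adaptors 19 of 22 were below vehicle, 6 at an unadjusted p under 0.05 and 0 higher, with a median of -0.11. After quantile normalization the median was -0.044, with 3 lower and 0 higher. The endosomal receptors of single-stranded RNA were the members of smallest p. Tlr7 had 7.72, 7.81 and 8.01 against 7.48, 7.36 and 7.26, a change of -0.48 ± 0.12, and Tlr8 had a change of -0.64 ± 0.19. Neither overlapped between groups, and the limma adjusted p values were 0.19 and 0.21. Ly96, the MD-2 partner of Tlr4 in endotoxin sensing, had the largest estimate of the list, -1.25 ± 0.44 (adjusted p = 0.29), which came mostly from replicate 3. Its joint values were 9.42, 9.60 and 7.31 against 9.84, 10.07 and 10.15, and the change without replicate 3 was -0.51.

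In the inflammasome list, which holds the sensors, adaptors and caspases that process interleukin-1, the median was -0.14 (-0.061 after quantile normalization), and 6 of 24 members were lower and 0 higher at an unadjusted p under 0.05, or 3 and 1 after quantile normalization. The members of smallest p were 2 sensors. Naip2, which recognises rod proteins of bacterial secretion systems, had a change of -0.97 ± 0.27, and Nlrp1b, the sensor of anthrax lethal factor, -0.55 ± 0.16, both with a limma adjusted p of 0.21. Naip2 has close paralogs, such as Naip6 (-0.70 ± 0.28, from -1.06 without vehicle replicate 1 to -0.38 without replicate 3 of the joint exposure), whose probes may share signal. Nlrp3, the sensor that crystals and particles activate, had 7.91, 7.96 and 7.79 against 8.04, 7.81 and 8.14, and a change of 0.10 ± 0.13. The groups overlapped for Nlrp3.

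For 4 much-studied genes of inflammation the arrays overlapped between the groups. Tnf had a change of -0.10 ± 0.13, Il1b -0.15 ± 0.18, the chemokine gene Cxcl2 0.12 ± 0.13, and Ptgs2, the inducible cyclooxygenase, -0.19 ± 0.20, with limma adjusted p values from 0.74 to 0.78. These 4, Nlrp3, Fos and Hmox1 were picked as reference genes of particle inflammation with results of these data known. The median over 37 cytokines and chemokines was 0.024 (-0.036 after quantile normalization), over 27 NF-kB factors and feedback genes -0.045 (0.055), and over 24 immediate early factors 0.039 (0.068). At an unadjusted p under 0.05 there were 2 lower and 0 higher cytokines and chemokines (1 and 1 after quantile normalization), 3 lower and 0 higher NF-kB genes (0 and 1), and 0 lower and 2 higher immediate early factors (0 and 4). Fos, an early response factor, had a change of 0.17 with a 95% interval from -0.15 to 0.48. Hmox1, the heme oxygenase induced by oxidative stress, had 0.21 ± 0.11, and the 31 NRF2 targets, which answer to oxidants, had a median of -0.028 (0.066 after quantile normalization).

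The catalase gene Cat, one of the NRF2 list, had 10.95, 10.96 and 11.02 on the vehicle arrays and 10.58, 10.69 and 9.31 on the joint arrays. All joint arrays were lower, but the change of -0.79 ± 0.27 was -0.35 without replicate 3. The 23 metal and iron genes had a median of -0.027 (0.046 after quantile normalization), with 3 lower at an unadjusted p under 0.05 and 2 after quantile normalization. Among them Hamp, the iron hormone hepcidin, had -0.83 ± 0.21 at a low level (2.90, 2.31 and 3.12 against 1.74, 1.93 and 2.16), and 0.027 when its probe set of highest signal stood for the gene. Steap3, an endosomal iron reductase, had -0.61 ± 0.18. The limma adjusted p values of these 3 genes lay between 0.19 and 0.27.

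The receptors of estradiol did not pass. Esr1 had vehicle values of 5.87, 5.61 and 6.02 and joint values of 5.92, 5.45 and 5.33, which overlap, and a change of -0.27 ± 0.15 (limma adjusted p = 0.48), which ranged from -0.44 to -0.14 without single arrays. Esr2 had 0.18 ± 0.14 and Gper1 -0.13 ± 0.11. Of the 19 measured receptors and coregulators 16 were below vehicle, 6 at an unadjusted p under 0.05 and 0 higher, with a median of -0.14. After quantile normalization the median was -0.16, with 3 lower and 0 higher. The members of smallest p were the acetyltransferases Crebbp (-0.35 ± 0.11) and Ep300 (-0.29 ± 0.11), the p160 coactivator Ncoa1 (-0.39 ± 0.12) and the Mediator subunit Med1 (-0.29 ± 0.11). Next, at a similar p, came the corepressors Nrip1 (-0.33 ± 0.12) and Ncor1 (-0.33 ± 0.12), so the lower members were not coactivators alone. Ncoa1 had joint values of 7.62, 7.45 and 7.14 below vehicle values of 7.83, 7.75 and 7.81, and its change was -0.26 without replicate 3.

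The 25 estrogen response genes, known targets of the receptors in other tissues, had a median change of -0.029 (0.009 after quantile normalization). At an unadjusted p under 0.05, 1 was lower and 0 higher, which is below the shares over all genes. After quantile normalization 0 were lower and 1 higher. The estrogen response element, searched on both strands in the same windows as GGTCA and TGACC with any 3 bases between them, was in 0 of the 14 named genes with a window, in 0 of 20 estrogen response genes and in 0.074% of all genes. No match says only that these letters are not in this window.

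Genes of sterol export and fatty acid synthesis lay mostly below vehicle, as did most genes of the highest level class, and none passed. Of 24 members of the LXR and fatty acid synthesis list 7 were lower and 1 higher at an unadjusted p under 0.05, with a median of -0.12 (-0.052 after quantile normalization). Mylip, the ubiquitin ligase that removes the LDL receptor, had 8.15, 7.93 and 7.95 against 7.73, 7.49 and 7.23, and a change of -0.53 ± 0.14 (limma adjusted p = 0.19). The cholesterol exporters Abca1 and Abcg1 had -0.32 ± 0.10 and -0.29 ± 0.10. Their arrays did not overlap either, with joint values of Abca1 of 7.97, 7.93 and 7.71 below vehicle values of 8.15, 8.17 and 8.28. The 22 genes of cholesterol synthesis and uptake had a median of -0.019 (0.048).

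Gpr183, a receptor for oxysterols that guides immune cells, stood on the other side. Its vehicle values were 7.67, 7.84 and 7.85 and its joint values 8.25, 8.22 and 8.10. The groups did not overlap, and the change of 0.41 ± 0.09 (limma adjusted p = 0.17, or 0.049 on the log2(intensity + 16) scale) was 0.50 after quantile normalization. With TiO2 alone Gpr183 had a change of 0.62, the adjusted p being 0.082, and with estradiol alone 0.39.

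Genes of the cell cycle lay mostly below vehicle in the deposited values, as did most genes of the highest level class, and none passed. Of 35 mitosis genes 28 were below vehicle and 11 lower at an unadjusted p under 0.05, with 0 higher, and the median was -0.19 (-0.11 after quantile normalization, with 7 lower and 1 higher). Kif2c, a microtubule-depolymerising kinesin, had -0.32 ± 0.09, and Incenp, the scaffold of the chromosomal passenger complex, -0.37 ± 0.12. Tpx2, a spindle assembly factor, had -0.32 ± 0.10 and Cdc25c, the phosphatase that activates Cdk1, -0.34 ± 0.11, and the limma adjusted p of these 4 genes was 0.21 to 0.24. The DNA replication list had a median of -0.094, which was 0 after quantile normalization, and the count of its 36 members lower at an unadjusted p under 0.05 went from 7 to 1. The ribosome assembly list had a median of -0.16 (-0.071), with 4 lower and 1 higher of 31, or 0 and 1 after quantile normalization.

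Macrophage identity genes had a median of -0.088 (-0.054 after quantile normalization), with 5 of 24 lower and 0 higher at an unadjusted p under 0.05. Adgre1, the surface antigen F4/80, had 6.93, 7.13 and 6.84 against 6.27, 6.54 and 6.41, a change of -0.56 ± 0.16 (limma adjusted p = 0.21) with no overlap. Cd33, an inhibitory lectin of myeloid cells, had -0.38 ± 0.13, which was -0.21 without replicate 3. Among phagocytic and scavenger receptors the median was -0.065 (-0.014), and the apoptotic cell receptors Mertk and Tyro3 had changes of opposite sign, -0.37 ± 0.10 and 0.45 ± 0.14.

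Energy metabolism gave small estimates in both directions. Over 36 genes of hypoxia and glycolysis the median was -0.036 (0.049 after quantile normalization), with 3 higher and 1 lower at an unadjusted p under 0.05. Epas1, the hypoxia factor HIF-2 alpha, had 8.64, 8.76 and 8.87 against 8.39, 8.28 and 8.34, a change of -0.42 ± 0.10 without overlap (limma adjusted p = 0.17). Ankrd37, a hypoxia target, had 0.33 ± 0.12. The 30 oxidative phosphorylation genes had a median of -0.021 (0.051), and 18 were below vehicle. At an unadjusted p under 0.05, 3 were higher and 1 lower (4 and 0 after quantile normalization), and the lowest change in the list was -0.38. The 3 higher members, Sdhb, Ndufs3 and Cox5b, subunits of complexes II, I and IV, had changes between 0.25 and 0.26. That of Cox5b was 0.16 without replicate 3, and 5 of the 14 probe sets of Ndufs3 were lower. The plot of list medians holds the lists not described here.

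**Figure D3:**
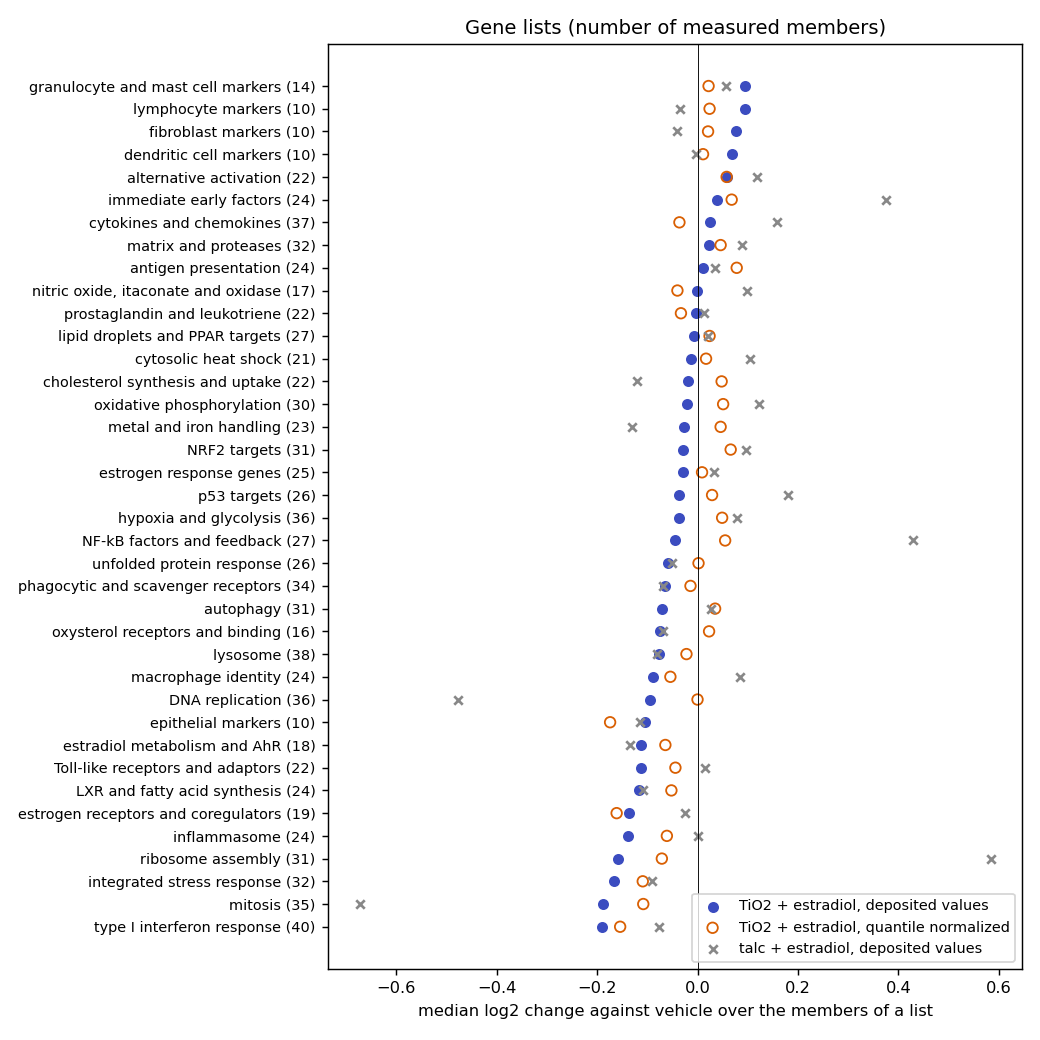
Median log2 change against vehicle (horizontal axis) over the measured members of each of the 38 gene lists, whose number is in brackets. Filled blue points are TiO2 plus estradiol in the deposited values, open orange points the same after quantile normalization, and grey crosses talc plus estradiol in the deposited values. The blue points lie between -0.19 and 0.094, and the talc plus estradiol crosses reach from -0.67 for mitosis to 0.58 for ribosome assembly.

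Whether both exposures together differed from either alone was tested directly. Against TiO2 alone 2 genes passed (0.00866% of 23102, with 3012, or 13%, at an unadjusted p under 0.05), against estradiol alone 1 passed (0.00433%, with 2059, or 8.91%), and in the interaction, the departure of the joint change from the sum of the single changes, 0 passed (0%, with 1860, or 8.05%, at an unadjusted p under 0.05 and a smallest limma adjusted p of 0.057). The gene that passed in both comparisons with a single exposure was D630033O11Rik, a clone-named gene of low signal (percentile 17.8 of mean level). It belongs to the lowest class of level, in which 62.2% of genes were above vehicle with both exposures before quantile normalization. Its log2 intensities were 3.46, 3.33 and 3.29 with vehicle, 3.09, 3.10 and 2.94 with estradiol, 3.18, 2.83 and 3.12 with TiO2, and 3.82, 3.98 and 3.88 with both. The joint arrays were the highest and both single exposures lay below vehicle. It rose by 0.85 ± 0.12 against TiO2 (limma adjusted p = 0.038) and by 0.85 ± 0.12 against estradiol (adjusted p = 0.039). The interaction was 1.17 ± 0.17 (adjusted p = 0.057). The calls were lost in a fit of only the groups compared, with adjusted p values of 0.39 and 0.38. Without any 1 of the arrays compared the adjusted p was 0.12 to 0.29 against estradiol, and against TiO2 it was 0.076 to 0.14, except without TiO2 replicate 1 (0.037).

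Lipt1, a mitochondrial lipoyltransferase, was the other gene that passed against TiO2. It had 4.46, 4.65 and 4.68 with vehicle, 4.65, 4.71 and 4.82 with estradiol, 4.93, 5.08 and 5.39 with TiO2, and 4.31, 4.24 and 4.13 with both. The joint arrays were the lowest and those of TiO2 the highest. Lipt1 fell by 0.90 ± 0.13 on the log2 scale against TiO2 (limma adjusted p = 0.041), and its change against vehicle was -0.37 ± 0.13 (adjusted p = 0.29). Against TiO2 the change was 0.087 when the probe set of highest signal stood for the gene, so it does not hold across the probe sets of Lipt1, and the adjusted p was 0.39 in a fit of only the groups compared. Without 1 array the adjusted p was 0.076 to 0.18, except without TiO2 replicate 1 (0.037).

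Further genes of small interaction p did not pass. Il18bp, the secreted inhibitor of interleukin-18, had 4.83, 4.72 and 4.97 with vehicle, 5.32, 5.31 and 5.30 with estradiol, 5.57, 5.76 and 5.34 with TiO2, and 4.78, 5.17 and 4.81 with both. Each single exposure lay above vehicle and the joint arrays overlapped with vehicle, with an interaction of -1.11 ± 0.18 (limma adjusted p = 0.18). Ms4a6b, a membrane protein of the MS4A family, had the opposite order, with an interaction of 1.54 ± 0.27 (adjusted p = 0.2). Its values were 3.91, 3.91 and 3.96 with vehicle, 2.78, 3.0 and 3.16 with estradiol, 2.51, 3.26 and 2.88 with TiO2, and 3.52, 3.51 and 3.42 with both.

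For 4 of the 16 genes of smallest p, the estimates against vehicle from each exposure are given side by side, with no count of shared signs, as all rest on the same vehicle arrays. Mrc1 had -0.74 with TiO2 alone and -0.60 with estradiol alone beside -0.89 with both. Tgfbi had -0.44, -0.32 and -0.51 in the same order. Cdkn2b had -0.07, 0.20 and 0.58, and Gemin4 had 0.04, 0.46 and 0.91. The smallest adjusted p of the interaction among all 16 was 0.5, so a departure from the sum was not detectable for them with 3 arrays a group.

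**Figure D4:**
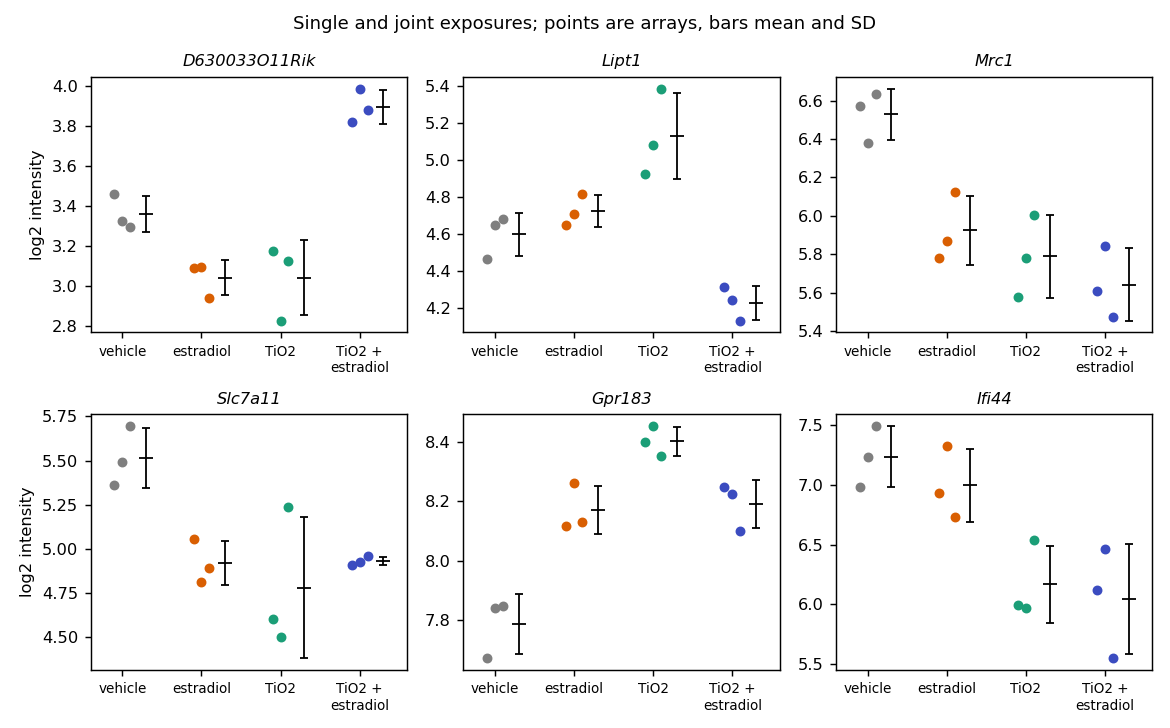
Log2 intensity (vertical axes, each with its own range) of 6 genes on the 3 arrays of vehicle, estradiol, TiO2 and both exposures. Points are arrays and bars the mean with SD. D630033O11Rik is highest with both exposures and Lipt1 lowest. Mrc1, Slc7a11 and Gpr183, picked by small p with both exposures, lie on the same side of vehicle with each exposure. Every exposure is set against the same vehicle arrays, so a shared side is not separate evidence. The estradiol arrays of Ifi44 overlap with those of vehicle.

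Talc with estradiol was the other joint exposure at the same particle mass and hormone dose, and here many genes differed. TiO2 plus estradiol against talc plus estradiol gave 2201 passing genes (9.53% of all), of which 662 (2.87%) were higher and 1539 (6.66%) lower with TiO2. After quantile normalization these were 851 higher and 887 lower, and leaving out replicate 3 or replicate 1 of talc plus estradiol left 1221 or 1457 passing genes. Fos was lower with TiO2 plus estradiol, with a log2 difference of -1.93 (limma adjusted p = 2.4e-06), as were Cxcl2 (-1.66, 2.4e-06) and Ptgs2 (-2.13, 1.2e-05). These 3 genes had estimates between -0.19 and 0.17 in TiO2 plus estradiol against vehicle. Tgfbi was higher with TiO2 plus estradiol than with talc plus estradiol, by 2.07 (limma adjusted p = 8.1e-09), as was Mrc1, by 0.66 (0.008). Both were below vehicle with TiO2 plus estradiol, at 70.4% and 54.1% of its level, and lower still with talc plus estradiol. Talc plus estradiol against vehicle gave 1527 passing genes of 23102, and TiO2 plus estradiol against vehicle 0.

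By group, 11 of 24 immediate early factors, 19 of 27 NF-kB genes, 11 of 37 cytokines and chemokines and 26 of 31 ribosome assembly genes were lower with TiO2 plus estradiol than with talc plus estradiol and passed. In the immediate early list 1 gene was higher and passed, and in the other 3 lists 0. Of the genes of mitosis 23 of 35 were higher and passed, and of those of DNA replication 16 of 36, with 1 lower. Over all genes 2.87% were higher and passed, and 6.66% lower. Against vehicle, the medians with talc plus estradiol were -0.67 for mitosis and -0.48 for DNA replication. They were 0.38 for immediate early factors, 0.43 for NF-kB genes, 0.16 for cytokines and chemokines and 0.58 for ribosome assembly. With TiO2 plus estradiol the medians of these lists lay between -0.19 and 0.039. Tlr7 (0.77, limma adjusted p = 0.00098), Tlr8 (0.69, 0.028) and Slc7a5 (0.39, 0.035) were also higher with TiO2 plus estradiol. Ifi44 (-0.16) and Slc7a11 (-0.0023) did not pass in this comparison, with adjusted p values of 0.76 and 1.

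At the level of single probe sets, which on this array cover parts of a gene, 3 of 269751 passed against vehicle, and all 3 were lower. One probe set of Dnajc10, an endoplasmic reticulum disulfide reductase, had a mean of 8.04 with vehicle and 6.54, 6.07 and 6.24 on the joint arrays, a change of -1.76 ± 0.18 (limma adjusted p = 0.018). The gene as a whole, with 19 probe sets, had -0.075. One probe set of Arf4, a small GTPase of the secretory pathway, had a mean of 9.44 and joint values of 7.003, 7.70 and 6.85, a change of -2.26 ± 0.26 (adjusted p = 0.047), beside -0.39 ± 0.10 (adjusted p = 0.19) for the gene. One probe set of Gm884, a predicted gene, had a mean of 5.07 and joint values of 1.66, 1.57 and 1.34 (adjusted p = 0.018), and the 11 probe sets of the gene together had 0.007. In each of the 3 the joint arrays lay below all 15 other arrays.

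The Dnajc10 probe set also passed against estradiol alone (-1.74 ± 0.18, limma adjusted p = 0.039) and not against TiO2 alone (-1.49 ± 0.18, 0.12). The other probe sets did not pass against either single exposure, with adjusted p values between 0.11 and 0.17. Of 30892 probe sets with no gene symbol and 5106 with several, 0 passed (limma). At an unadjusted p under 0.05 there were 2462 (7.97%) and 373 (7.31%) of them, beside 9.83% of all probe sets.

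**Figure D5:**
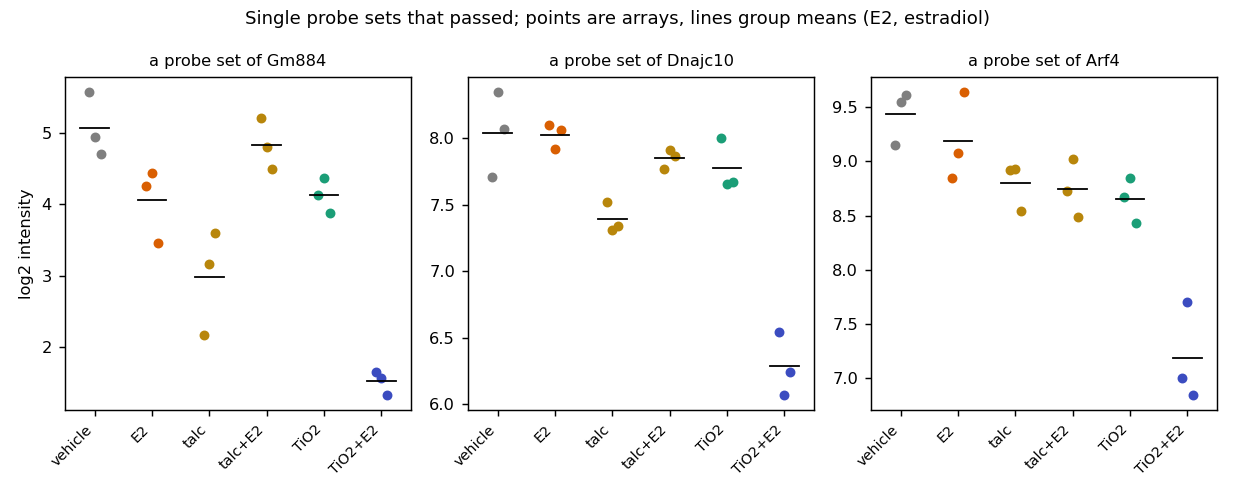
Log2 intensity (vertical axes, each with its own range) of the 3 probe sets that passed in TiO2 plus estradiol against vehicle, on the 3 arrays of each of the 6 groups (E2, estradiol). Points are arrays and lines group means, and the jointly exposed arrays lie below all 15 others in each plot.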

How the data were processed

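Total RNA of J774 cells was measured on Affymetrix arrays. The authors deposited linear intensities of probe sets for each array (1.458 to 17256.04). The submitters' processing notes name RMA, and its version and settings are not given in the sources used here. log2 was taken of the deposited intensities.

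Gene values were means of log2 intensity over probe sets given a single symbol by the platform annotation, 233753 probe sets for 23102 genes (median 8 per gene), with 2247 symbols updated through the reference table. No gene was filtered out. One limma 3.58.1 model (lmFit, eBayes) with 6 group means took in all 18 arrays, with data.table (1.17.8) under R 4.3.3, leaving 12 residual and 4.57 prior degrees of freedom. Tests were two-sided, p-values were adjusted by Benjamini-Hochberg over the genes of a contrast, and 0.05 was the threshold. Errors are standard errors of the model. The small number of arrays limits precision (the median SE was 0.151 log2 units). The fit was tested on simulated data.

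The members and the gene lists (38 lists, 899 of 931 distinct genes measured) were chosen with earlier results of these data known. Named genes were those passing without overlap or, where fewer than 8 passed in a direction, the 8 of smallest p, without predicted and clone-named genes, up to 5 of smallest interaction p, and up to 4 members of smallest p per list; genes outside the rule are marked. Not every gene that qualified is printed. Alternatives tried were genes above the median level, the brightest probe set per gene, each probe set alone, quantile normalization, subtraction of array medians, log2(intensity + 16), array weights, robust variance with a trend on intensity, only the groups compared, no talc groups, and leaving out each array. Promoter windows came from RefSeq (GRCm38.p6).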

Additional observations from a re-analysis of the deposited data

How the results depend on the processing

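For TiO2 plus estradiol against vehicle the count of passing genes was 0 in the fit reported and 0 without each array in turn (range 0 to 0). Testing only genes above the median level gave 2, log2(intensity + 16) gave 16 and a fit of the 233753 single-symbol probe sets alone 5 (3 in the fit of all 269751 given in the report), with 4 under an intensity trend and robust variance. Unadjusted counts lay between 2077 and 3402. Against TiO2 alone the count was 2 as reported, 19 with the brightest probe set per gene, 5 after quantile normalization, and 0 with array weights, only the groups compared, without both talc groups, or each probe set on its own, and 0 to 2 without single arrays, where the 1 without TiO2 plus estradiol replicate 3 was neither of the 2 genes reported. Against estradiol alone it was 1 as reported, and 0 with the brightest probe set, quantile normalization, subtracted array medians, an intensity trend, only the groups compared, without both talc groups, and 0 to 0 without single arrays. The interaction gave 0, and 0 to 4 without single arrays (4 without TiO2 replicate 2). Against talc plus estradiol 2201 passed as reported, 1248 with the brightest probe set (764 higher, 484 lower), 3470 with log2(intensity + 16), 812 with only the groups compared, 4010 for each probe set on its own, and 1221 to 1738 without single arrays. The split was 851 higher and 887 lower after quantile normalization and 435 higher and 2306 lower after subtracting array medians. Fewer samples enter the fits of only the groups compared, and for the other differences the cause was not tested. The brightest probe set moved the median change of all genes to 0.07 and subtracted medians moved it to -0.06. With the brightest probe set per gene the change against vehicle turned to 0.16 for Cog7, 0.34 for Lipt1, 0.027 for Hamp, 0.063 for Cebpb, -0.024 for Cxcl2, 0.12 for Tnf and 0.39 for Il1b, and that of Lipt1 against TiO2 to 0.087. Without single arrays Il1b ranged from -0.36 to 0.0076 and Il18bp from -0.049 to 0.15. No paired analysis was possible because array numbers in the labels run on from group to group without repeating.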

Other observations

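Cpt1b, the muscle form of the carnitine palmitoyltransferase that carries fatty acids into mitochondria, had the largest difference among the 5 genes of smallest p in TiO2 plus estradiol against estradiol alone. Its log2 intensities were 6.87, 6.90 and 6.77 with both exposures, 4.44, 4.98 and 5.77 with estradiol, 5.58, 5.38 and 4.88 with TiO2, and 6.70, 5.98 and 6.004 with vehicle. The arrays with both exposures lay above all others of these groups. The difference was 1.78 ± 0.36 against estradiol (limma adjusted p = 0.40) and 0.62 ± 0.36 against vehicle (adjusted p = 0.49), on 1 probe set. The spread among the estradiol arrays was wide.

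Tchh, trichohyalin, a structural protein of hair follicles with low signal here, had 3.50, 3.48 and 3.51 with TiO2 alone and 2.47, 2.82 and 2.83 with both exposures, beside 2.89, 2.64 and 2.97 with vehicle. The TiO2 arrays lay above the others, and the interaction was -1.10 ± 0.20 (limma adjusted p = 0.2).

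Some members of smallest p in further lists can be given as values. Irf4, a factor of alternative activation, had 4.32, 4.35 and 4.30 with vehicle and 3.84, 3.76 and 3.89 with both exposures, a change of -0.50 ± 0.13 (limma adjusted p = 0.2) with no overlap. Mdm2, the ligase that degrades p53, had -0.53 ± 0.15 against vehicle, which was -0.37 without replicate 3, and its log2 difference from talc plus estradiol was -1.22 (adjusted p = 0.00017). H2-K1, a class I antigen-presenting molecule, had 7.58, 7.48 and 7.68 against 7.94, 8.16 and 7.83, a change of 0.39 ± 0.15 (adjusted p = 0.32), and its probes may share signal with other class I genes. The myeloid factor Cebpb had -0.56 ± 0.20, with joint values of 6.50, 6.86 and 7.31, and replicate 3 the highest of them. The change was -0.37 without replicate 1, 2 of its 3 probe sets were higher, and the one of highest signal gave 0.063, so the direction did not hold across the gene.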
